A study of Mus musculus with 26 samples.

Results

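The 9 genes described here are complement components and regulators of the mouse: the initiator subunits *C1qa*, *C1qb* and *C1qc*, the central proteins *C3*, *C4b*, *C2* and *Cfb*, the receptor gene *C3ar1* and the inhibitor gene *Serping1*. They were chosen by name, and all 9 were found among the 55401 genes counted in 26 RNA sequencing libraries of dorsal root ganglia (DRG), where the cell bodies of sensory neurons sit. The study asked how the aryl hydrocarbon receptor (*Ahr*, a transcription factor activated by small ligands) bears on the response of DRG neurons to axon injury. Conditional knockout mice (cKO) were Ahr f/f Thy1-CRE(ERT2/EYFP), in which the *Thy1* promoter, active mainly in neurons, drives a tamoxifen-dependent Cre together with a yellow fluorescent protein. Control mice had no Cre and were Ahr fl/+ (2 of 3 naive and 2 of 3 crush mice), Ahr f/+ (1 of 2 sham mice) or Ahr fl/fl (the other mice of those groups and all 3 neuron samples). Every group therefore carried at least 1 floxed *Ahr* allele, and no control carried the transgene, so an effect of Cre or of the reporter cannot be told apart from one of *Ahr* deletion.

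For naive and crush mice, tamoxifen was injected on 5 days, each time 100 mg/kg, when they were 28 weeks old, and lumbar ganglia (L4 to L6) were taken 5 weeks later, from naive mice or 1 day after sciatic nerve crush, with 3 mice per genotype in each. For sham surgery, ganglia of both sides, ipsilateral (operated) and contralateral, were taken after 1 day from 2 mice of each genotype. Semi-purified DRG neurons were collected 24 hours after seeding, with 3 samples per genotype. The labels give no age and no tamoxifen dose for the sham and neuron samples. Ganglia were dissociated between 2 and 4 hours after lights on.

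Complement is a cascade of plasma and tissue proteins that marks cells and debris for removal. In the classical pathway C1q binds its target, the proteases attached to it cleave C4 and C2, and the enzyme that forms cleaves C3. Factor B, encoded by *Cfb*, builds the corresponding enzyme of the alternative pathway, which amplifies C3 cleavage. The released fragment C3a acts on the receptor C3aR1, and C1 inhibitor, encoded by *Serping1*, blocks the C1 proteases. In nervous tissue C1q is made mainly by macrophages and microglia, whereas C4 and C3 are also made by glia, endothelium and fibroblasts.

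In GRCm38 (GENCODE M21, all minus strand) the C1q genes form a cluster: *C1qb* (ENSMUSG00000036905.8) at chr4:136880129-136886187, *C1qc* (ENSMUSG00000036896.5) at chr4:136889804-136893065 and *C1qa* (ENSMUSG00000036887.5) at chr4:136895917-136898803. *C4b* (ENSMUSG00000073418.4, chr17:34728380-34743882), *Cfb* (ENSMUSG00000090231.10, chr17:34856374-34862518) and *C2* (ENSMUSG00000024371.14, chr17:34862604-34898265) lie near each other in the major histocompatibility region, while *C3* (ENSMUSG00000024164.15) is at chr17:57203970-57228136. *C3ar1* (ENSMUSG00000040552.8) is at chr6:122847138-122856161 and *Serping1* (ENSMUSG00000023224.12) at chr2:84765387-84775444. *C2* and *Cfb* counts are uncertain, because the gene model *Gm20547* spans both and held counts equal to 176% of those of *C2* and 146% of those of *Cfb*. *Zbtb12*, on the other strand within *C2*, held 44.3% of the *C2* count. *C4a*, the near copy of *C4b*, held at most 0.870% of the *C4b* count in the naive and crush ganglia, 2.41% in the sham ganglia and 8.53% in the neurons.

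RefSeq promoter sequences (GRCm38.p6) were available for 4 of the 9 genes, and 3 are shown because these genes behaved differently: 2 C1q genes, which varied together in ganglia and were nearly lost in the neurons, and *C3*, which was not. Each runs 5′ to 3′ toward the start of the gene on its own strand. Capitals mark GAGGAA, the core letters bound by the myeloid factor PU.1 (written TTCCTC where it lies on the other strand), or TTGCGNAA, letters of C/EBP-type sites. Both strands were searched for both motifs, which do not overlap here. The *C1qb* window is chr4:136886201-136886450, that of *C3* is chr17:57228137-57228386, and that of *C1qc* is limited to the 99 bases outside the annotated gene, chr4:136893066-136893164.
C1qb: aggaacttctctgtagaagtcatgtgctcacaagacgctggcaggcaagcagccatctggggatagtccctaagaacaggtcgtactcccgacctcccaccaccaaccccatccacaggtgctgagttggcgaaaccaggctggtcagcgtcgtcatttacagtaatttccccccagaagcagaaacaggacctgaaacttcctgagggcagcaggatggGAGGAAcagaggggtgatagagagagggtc
C1qc: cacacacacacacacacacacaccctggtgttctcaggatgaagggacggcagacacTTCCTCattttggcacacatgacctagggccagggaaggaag
C3: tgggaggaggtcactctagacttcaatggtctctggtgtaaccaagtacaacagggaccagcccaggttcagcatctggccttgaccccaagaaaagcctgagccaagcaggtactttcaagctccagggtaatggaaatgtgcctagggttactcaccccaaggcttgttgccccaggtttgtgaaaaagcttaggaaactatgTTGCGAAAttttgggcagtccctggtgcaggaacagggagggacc
GAGGAA was present in 23.3% of the 32851 promoters searched (250 bases upstream) and TTGCGNAA in 0.67% of them. The *C3ar1* window held neither. A match is a description of letters and shows no binding.

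The 12 naive and crush libraries held 20169388 to 23540375 counts each, the 8 sham ones 39306414 to 58751270, and those of neurons 25299938 to 88180611. Levels are given as CPM, the count relative to the TMM-scaled library size, and each of these 3 sets was scaled on its own unless stated otherwise. *Ahr* was not called between genotypes in any setting (cKO minus control on the log2 scale 0.17 in naive ganglia, 0.07 in crush ganglia, where the groups did not overlap, and -0.05 in neurons), whereas *Thy1* was higher in cKO (0.86 in naive, adjusted p 0.00191, edgeR), and the injury gene *Atf3* was higher after crush by 5.64 on the log2 scale in control ganglia. On the operated sham side *Atf3* was at 125 and 82.4 CPM in control and 42.3 and 180 CPM in cKO mice. On the other side it was at 10.2 to 12.2 CPM. Semi-purified neurons held 746 to 862 CPM of *Atf3*, and crush ganglia 525 to 769 CPM. In 2 libraries, crush control replicate 3 (labelled male) and crush cKO replicate 2 (labelled female), the sex-linked transcripts were those of the other sex. An exchange of these 2 libraries between the crush genotypes would show this pattern of sex. *Thy1* was higher in all 3 libraries labelled crush cKO than in all 3 labelled crush control, these 2 included (0.79 on the log2 scale, adjusted p 0.00521, edgeR). By transcripts the naive and neuron mice were female, the sham mice male, the crush control mice female, and the crush cKO mice 1 female and 2 males. The neuronal marker *Rbfox3* was at 170 to 324 CPM in the ganglia. In the semi-purified neurons *Rbfox3* was at 99.1 to 125 CPM, and the summed level of 6 endothelial markers was 989 to 1517 CPM, against 115 to 201 CPM in naive ganglia. The labels name each neuron sample as a separate mouse.

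Across all groups *Serping1* was the most abundant of the 9 genes and *C3ar1* was among the least abundant. Per kilobase of exon, and with 1 scaling over all 26 libraries, naive control ganglia held 75.7 CPM of *Serping1*, 35.6 of *C1qa*, 31.97 of *C1qb*, 14.3 of *C1qc*, 3.08 of *C4b*, 2.28 of *C3*, 2.28 of *Cfb*, 2.25 of *C2* and 1.27 of *C3ar1*. In these naive control ganglia the C1q transcripts were above those of *C4b*, *C2* and *C3* on the per-length scale, whereas on the operated side of sham control mice *C1qc* (8.41) was below *C4b* (9.44). In control neurons the same scale gave 53.3 CPM for *Serping1* but 0.169, 0.455 and 0.0449 CPM for *C1qa*, *C1qb* and *C1qc*, below the 3.21 CPM of *C4b*.

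**Figure D1:**
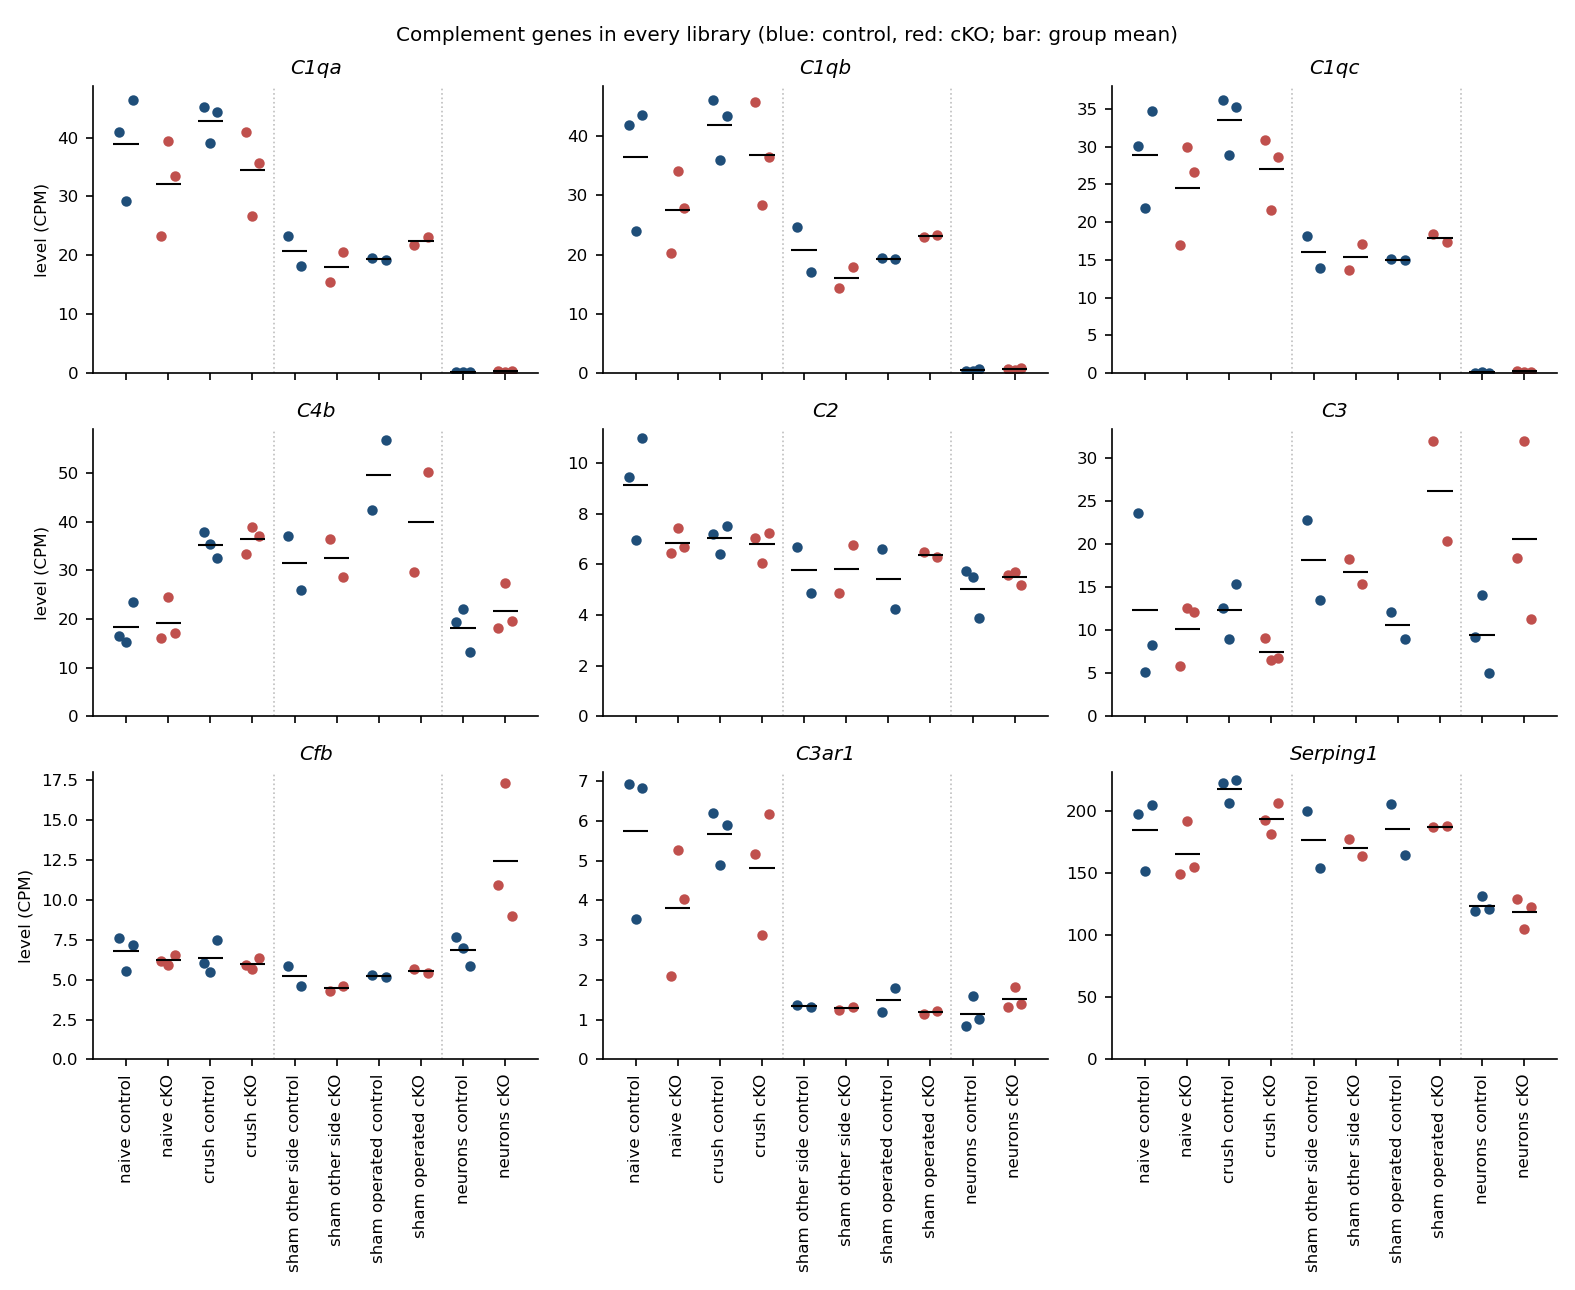
Level of each complement gene (y axis, CPM, from 0) in every library of the 10 groups (x axis; blue control, red cKO; bars are group means, 3 libraries per group or 2 in the sham groups; dotted lines separate the sets scaled apart). C1q genes are near 0 in neurons, and *C4b* is higher in every crush library than in every naive library.

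The C1q genes encode the chains A, B and C of the recognition protein of the classical pathway. *C1qa* was at 41.0, 29.1 and 46.4 CPM in naive control mice, 23.2, 39.4 and 33.6 in naive cKO mice, 45.2, 39.0 and 44.4 in crush control mice and 41.0, 26.7 and 35.7 in crush cKO mice. The 4 groups overlapped, and the spread within a genotype was as wide as the step between groups. Across the 12 naive and crush libraries *C1qa* and *C1qc* moved together (Pearson r 0.986 of log2 CPM over 12 libraries), and *C1qb* followed them (r 0.938 with *C1qa* and 0.941 with *C1qc*). The count of *C1qc* per exon length stayed within 0.392 to 0.437 of that of *C1qa* in these libraries. That of *C1qb* stayed within 0.787 to 1.07. In the sham libraries the ratios were 0.405 to 0.477 and 0.830 to 1.01.

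*C3ar1*, the receptor for C3a that is expressed by myeloid cells, followed the C1q genes (r 0.938 with *C1qa*). It was at 6.91, 3.52 and 6.81 CPM in naive control, 2.09, 5.26 and 4.03 in naive cKO, 6.203, 4.90 and 5.90 in crush control and 5.15, 3.13 and 6.16 in crush cKO ganglia. The lowest naive control, naive cKO and crush cKO library for *C1qa* was also the lowest for *C3ar1*. The summed level of the 10 macrophage markers was lowest in the same libraries, at 138, 134 and 136 CPM, and reached 187 CPM elsewhere in this set. In bulk tissue fewer macrophages and less RNA per macrophage cannot be told apart. These correlations are descriptions over 12 libraries that share the preparation.

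Genes outside the family that tracked each member most closely over the same 12 libraries were taken from 13984 genes with a mean of at least 1 CPM. For *C3* they were *Mapkapk3* (r 0.971), *Plac8* (0.957) and *Itgam* (0.939), the last encoding the alpha chain of complement receptor 3, which neutrophils and macrophages carry. For *C4b* they were *Tle3* (0.988), *Slc6a8* (0.982) and *Ctnna1* (0.976). *Serping1* was most like *Snai1* (0.965), *Col18a1* (0.936) and *Ifitm3* (0.929), and *C3ar1* was most like *Ripk1* (0.962) and *Arhgef5* (0.949). *C1qb* was closest to *Tmod3* (0.959), *Calu* (0.954) and *Serp1* (0.953), *C2* to *Gpc3* (0.935), and *Cfb* to *Cpxm2* (0.894), the lowest of the leading values.

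After nerve crush 1 of the 9 genes was called higher than in naive ganglia in each genotype, *C4b*. This gene encodes the C4 protein that C1s cleaves and that binds covalently to targets. *C4b* was at 16.5, 15.3 and 23.4 CPM in naive control mice and at 37.8, 35.5 and 32.5 in crush control mice. In cKO mice it was at 16.0, 24.4 and 17.2 CPM in naive and 33.3, 38.8 and 37.1 in crush ganglia. Each of the 6 crush libraries was above each of the 6 naive libraries. In control mice the log2 fold change was 0.94 (SE 0.170, adjusted p 0.00207), and in cKO mice it was 0.92 (SE 0.170, adjusted p 0.00258), by edgeR's quasi-likelihood test with Benjamini-Hochberg adjustment over 21261 genes. Averaged over both genotypes it was 0.93 (SE 0.120, adjusted p 9.41e-05), a 1.90-fold rise. The rise did not differ detectably between genotypes: the difference was -0.02 on the log2 scale, and 2 SE on either side of it spans -0.50 to 0.46. Naive mice had no surgery, so crush and surgery cannot be told apart in this comparison. With 1 scaling over all 26 libraries, *C4b* was at 33.6 CPM in crush control and 34.8 CPM in crush cKO ganglia. In the same order it was at 34.1 and 35.4 CPM on the other side of sham mice, and at 17.5 and 18.2 CPM in naive ganglia. The sham mice were male by transcripts, and these levels were not compared by a test.

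The counts of members called after crush stand against a broad response, since 12.9% of all genes were called higher after crush in control and 10.7% in cKO ganglia (21.6% and 18.6% in either direction), so 1 of 9 is close to the background share. Groups that do not overlap with crush higher occurred for 21.1% of genes in control, 18.5% in cKO and 11.7% with all 12 libraries. Leaving out any 1 library kept *C4b* called in either genotype (log2 fold change 0.81 to 1.15 in control and 0.80 to 1.12 in cKO). The cKO call was lost when sex read from transcripts was a covariate (0.79, SE 0.235, adjusted p 0.0732), a fit in which the 1 female crush cKO library carries the comparison. Of the endothelial, fibroblast and macrophage markers 0 of 6, 0 of 6 and 0 of 10 were called higher after crush in either genotype, and 1 of 5 mural markers and 1 of 5 satellite glia markers tested were called higher in control. The summed level of the 5 mural markers was 398 to 421 CPM in crush control against 303 to 347 CPM in naive control ganglia, without overlap, and 376 to 418 against 302 to 384 CPM in cKO, with overlap. Their part in the *C4b* result was not tested.

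**Figure D2:**
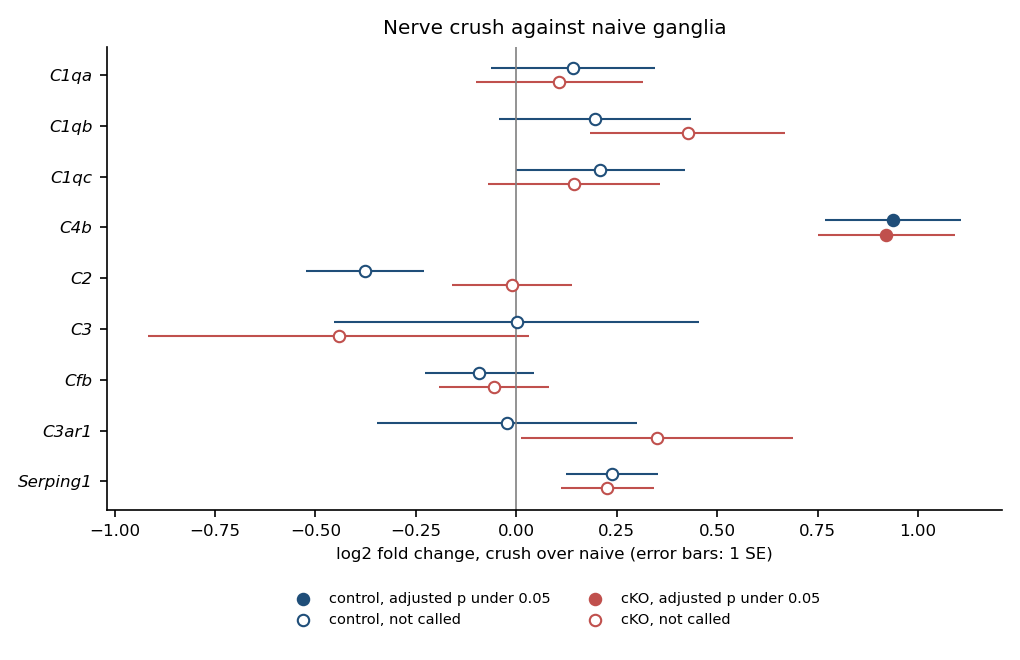
Log2 fold change of crush against naive ganglia (x axis; error bars 1 SE) for each complement gene (y axis) in control (blue) and cKO (red) mice, 3 mice per group. Filled points have an adjusted p under 0.05; *C4b* has the filled points, at 0.94 and 0.92.

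The genes around *C4b* in the cascade were not called. *C1qa* differed by 0.14 (SE 0.205) in control and 0.11 (SE 0.208) in cKO, and *C1qb* by 0.20 and 0.43. *C2*, whose product joins C4b in the C3-cleaving enzyme, was at 9.43, 6.95 and 10.98 CPM in naive control and 7.20, 6.39 and 7.51 in crush control ganglia. Its log2 fold change was -0.38 for control mice (SE 0.147, adjusted p 0.0919) and -0.01 for cKO mice. Without naive control replicate 2 the difference in control became -0.54 and was called (adjusted p 0.00870). *Cfb* differed by -0.09 in control and -0.05 in cKO.

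*C3*, the point where all pathways meet, varied more between mice than between conditions. It was at 23.6, 5.10 and 8.26 CPM in naive control, 5.85, 12.5 and 12.1 in naive cKO, 12.5, 9.002 and 15.3 in crush control and 9.09, 6.53 and 6.81 in crush cKO ganglia. The log2 fold change after crush was 0.00061 (2 SE on either side: -0.91 to 0.91) in control and -0.44 (-1.39 to 0.51) in cKO, so a change of up to about 0.9 in either direction in control was not detectable with this spread. In cKO the summed neutrophil markers were 196, 383 and 223 CPM in naive and 133, 66.4 and 58.0 CPM in crush ganglia, without overlap, and their part in the *C3* value was not tested. Without naive control replicate 1 the control value became 0.87 (SE 0.333, adjusted p 0.0962).

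*Serping1* was at 198, 152 and 205 CPM in naive control, 149, 192 and 155 in naive cKO, 222, 206 and 225 in crush control and 192, 181 and 207 in crush cKO ganglia. Neither genotype passed alone (log2 fold change 0.24, adjusted p 0.170, and 0.23, adjusted p 0.214). Averaged over genotypes it was called at 0.23 (SE 0.0816, adjusted p 0.0453, a 1.17-fold rise), where 34.1% of genes were called, 18.4% higher and 15.7% lower. The call was lost with labelled sex (0.19, adjusted p 0.136) or sex from transcripts (0.23, adjusted p 0.1397) as a covariate and without the 2 libraries of the other sex (0.24, adjusted p 0.0913), with a similar log2 fold change and a larger SE in each (0.0920, 0.103 and 0.0946). It was also lost without any 1 of 9 of the 12 libraries (0.16 to 0.25, adjusted p up to 0.117).

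Beyond the 9 genes, 30 of 43 other listed genes of the complement system passed the filter on low counts in these libraries. In control ganglia 1 was called higher and 2 lower after crush (8.73% of all genes lower), and in cKO ganglia 2 were called higher and 3 lower (7.89% of all genes lower), with median log2 fold changes of -0.05 and -0.01 (-0.02 and -0.005 over all genes tested). The lectin-pathway collectin *Colec10* rose from 0.615 to 3.66 CPM in control (log2 fold change 2.57, SE 0.348, adjusted p 0.000300) and from 0.687 to 3.48 CPM in cKO (2.33, adjusted p 0.000634). The membrane inhibitors *Cd55*, which dissociates the C3-cleaving enzymes, and *Susd4* fell in both genotypes. *Cd55* fell by 0.38 in control and by 0.45 in cKO on the log2 scale, and *Susd4* fell by 0.38 and by 0.39. In cKO ganglia *Colec11* fell by 1.07 (adjusted p 0.0497, edgeR), from 0.717 to 0.334 CPM, with overlap between the groups. *Cd59a*, the blocker of the membrane attack complex, rose by 0.17 in cKO ganglia (adjusted p 0.0457, edgeR).

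No member was called between genotypes in naive or crush ganglia. In naive mice 0 of 9 were called by edgeR and by DESeq2 (1 had an unadjusted p under 0.05), where 0.00941% of all genes were called. In cKO ganglia 8 of the 9 lay below control, with a median log2 fold change of -0.27 (0.00037 over all genes), and 0 of 9 were free of overlap between genotypes, against 11.5% of all genes. The largest difference was that of *C3ar1* (-0.60, SE 0.334, adjusted p 0.754), and *C2* had the smallest p (-0.42, SE 0.147, adjusted p 0.754). With 1 library left out *C3ar1* ranged from -0.90 (without naive cKO replicate 2) to -0.30 (without naive cKO replicate 1), and *C2* from -0.57 (without naive control replicate 2) to -0.26 (without naive control replicate 3), none called. The macrophage markers lay the same way, with 0 of 10 above 0 and a median of -0.26, none called. Their part in the complement values was not tested.

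After crush 0 of 9 were called by either tool (0 at an unadjusted p under 0.05; 0.00941% of all genes called), and 8 of 9 again lay below 0, with a median of -0.18. *C3* had the largest difference, -0.72 (SE 0.472, adjusted p 1.00). The summed level of 7 neutrophil markers was 58.0 to 133 CPM in crush cKO and 103 to 432 CPM in crush control ganglia. That of 5 red blood cell markers was 107 to 285 CPM in crush cKO and 371 to 455 CPM in crush control ganglia, without overlap. Their part in these values was not tested. Both comparisons of genotype had other mice, but the crush groups were unbalanced in sex by transcripts. The genotype difference in the crush effect was called for 0 of 9 (0 at an unadjusted p under 0.05) and for 0% of all genes.

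**Figure D3:**
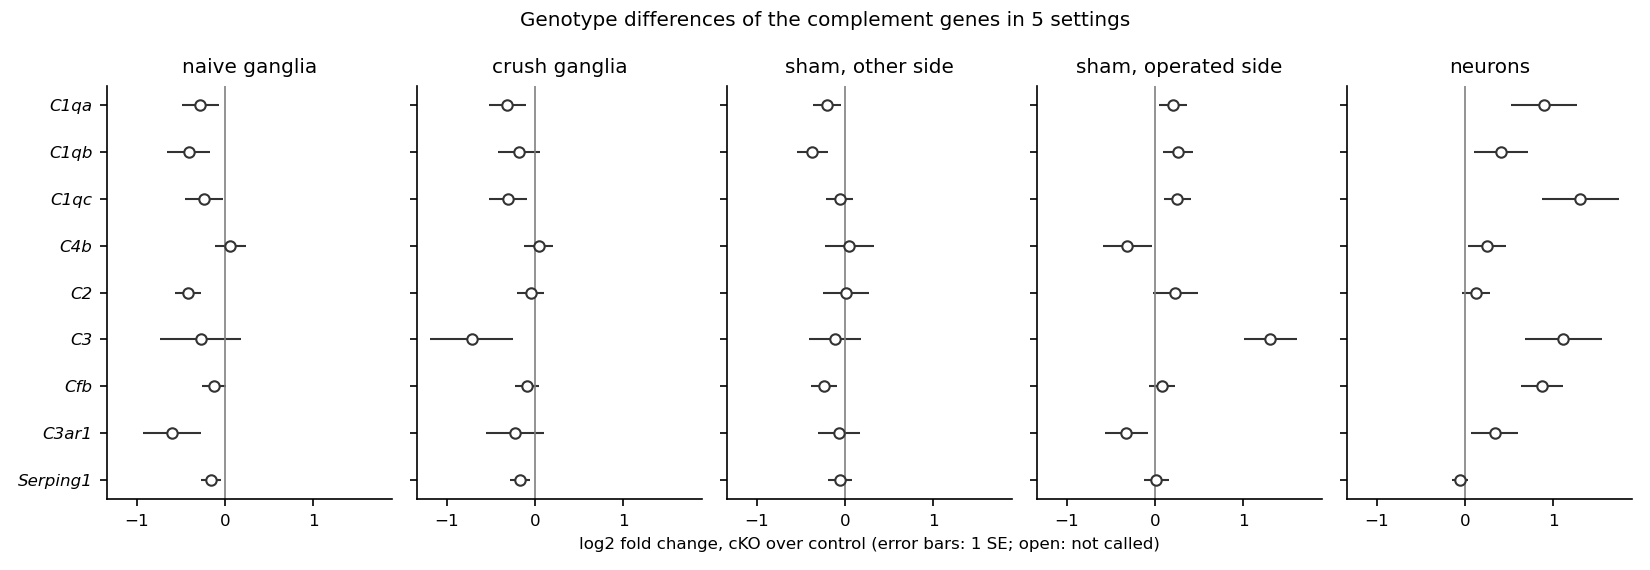
Log2 fold change of cKO against control (x axis; error bars 1 SE) for each complement gene (y axis) in 5 settings, with 3 libraries per genotype, or 2 on each sham side. No point has an adjusted p under 0.05; most lie left of 0 in naive and crush ganglia and right of 0 in neurons.

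Sham surgery was compared as the operated against the other side of the same mice. The main fit had 1 mean per group and did not pair the sides of a mouse. With the mouse as a block, 0 members were called. Averaged over genotypes, the 7 members other than *C3* and *C4b* differed by 0.01 to 0.21 on the log2 scale, with none called. *C4b* was at 42.4 and 56.9 CPM on the operated side and 37.0 and 25.96 CPM on the other side of control mice 1 and 2, and at 29.7 and 50.2 against 36.5 and 28.6 CPM in cKO mice 1 and 2. It was higher on the operated side in 3 of 4 mice and lower in cKO mouse 1. The log2 fold change of operated against other side, averaged over genotypes, was 0.48 (SE 0.197, p 0.0431 unadjusted by edgeR, adjusted p 0.646), and no member was called, with 1 at an unadjusted p under 0.05 (0.00451% of all genes called, 0 of 9 members by DESeq2). Leaving out 1 mouse moved the value of *C4b* between 0.17 (without cKO mouse 2) and 0.73 (without cKO mouse 1), and to 0.24 without control mouse 2. With no filter on low counts its adjusted p was 0.0424, where 1.09% of all genes were called.

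*C3* moved in opposite directions in the sham genotypes. In control mice it was at 12.2 and 8.94 CPM on the operated side and 22.8 and 13.5 CPM on the other side, lower on the operated side in 2 of 2. In cKO mice it was at 32.03 and 20.4 CPM on the operated side and 18.3 and 15.4 CPM on the other side, higher in 2 of 2. A test of this difference, added after the values were seen, gave 1.42 on the log2 scale (SE 0.420, p 0.0103 unadjusted by edgeR, adjusted p 1.00), and 1.36 with the mouse as a block (p 0.000364, adjusted p 0.608). It did not pass adjustment over all genes, of which 0% were called. Neutrophil markers moved with *C3*: their summed level on the operated and other side was 192 and 208, and 137 and 189 CPM in control mice, and 566 and 302, and 259 and 220 CPM in cKO mice. On the other side alone these sums were higher in cKO than in control without overlap, whereas *C3* overlapped. Summed macrophage, lymphocyte, mural and red blood cell markers moved as *C3* did in every mouse, and neuronal markers moved the opposite way. Macrophage markers were at 141 and 154, and 127 and 139 CPM in control mice. In cKO mice they were at 174 and 135, and 148 and 139 CPM. The part of these lists in the result was not tested.

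On the operated side alone, *C3* in cKO exceeded control by 1.31 (SE 0.3004, adjusted p 0.498, edgeR). With the filter on low counts edgeR called 0 of 9 members there (1 at an unadjusted p under 0.05; 0.00451% of all genes called). DESeq2 called *C3* (adjusted p 0.000339, with 0.69% of all genes called), and so did edgeR without the filter (adjusted p 0.000191, 1.79% of all genes). The sham genotypes did not overlap for 5 of 9 members on the operated side (*C1qa*, *C1qb*, *C1qc*, *C3* and *Cfb*, all higher in cKO; 33.3% of all genes) and for 1 of 9 on the other side (*Cfb*, lower; 39% of all genes). On the operated side the summed levels of other marker lists also did not overlap between genotypes. They were 148 and 174 CPM in cKO against 127 and 141 CPM in control for macrophage markers. Lymphocyte markers were at 9.66 and 11.6 against 3.37 and 6.32 CPM, and fibroblast markers at 759 and 818 against 425 and 722 CPM. Mural markers were at 225 and 266 against 203 and 222 CPM, and neuronal markers at 6318 and 6433 against 6778 and 6930 CPM. The part of these lists in the C1q, *C3* and *Cfb* values was not tested. All 7 neutrophil markers also lay above 0 in this comparison, with a median of 1.46 and none called. On the other side 0 of 9 were called by either tool (0 at an unadjusted p under 0.05; 0% of all genes), and *C3* differed by -0.11.

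**Figure D4:**
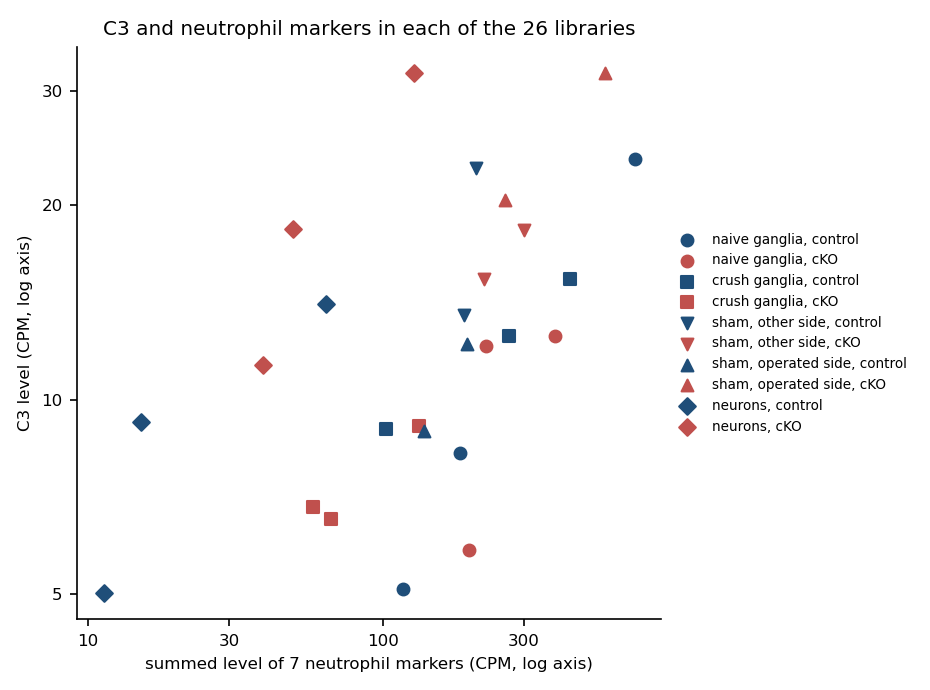
*C3* level (y axis, CPM, log axis) against the summed level of 7 neutrophil markers (x axis, CPM, log axis) in each of the 26 libraries, with symbols for the setting and colours for the genotype. The ganglion libraries highest in *C3*, at 32.03 CPM (sham operated side, cKO) and 23.6 CPM (naive control), are also highest in the markers, at 566 and 716 CPM; neuron libraries reach similar *C3* with far lower markers.

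Semi-purified neurons after 24 hours in culture had almost no C1q transcript. *C1qa* was at 0.162, 0.246 and 0.116 CPM in control and 0.393, 0.259 and 0.368 CPM in cKO neurons, from 4 to 33 counts per library. *C1qb* had 9 to 62 counts and *C1qc* 2 to 26 counts per library. Against naive ganglia of the same genotype the log2 fold change was -7.59 for *C1qa* in control and -6.45 in cKO, -6.06 and -5.25 for *C1qb*, and -8.17 and -6.65 for *C1qc*. *C3ar1* was lower too, by -2.17 and -1.24, at 0.850 to 1.82 CPM in neurons. The adjusted p values of these 4 genes were at most 0.00603 by edgeR.

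Most genes differ between these preparations, which sit in separate tables: 83.2% of genes were called in control and 82.1% in cKO (41.6% and 40.1% lower, 41.7% and 42% higher). Culture, purification and table cannot be told apart here. The members called lower were 6 of 9 in control and 5 of 9 in cKO, with 1 of 9, *Cfb* (1.09, adjusted p 0.000581), called higher in cKO. *C1qa*, *C1qb* and *C1qc* had fewer than 10 counts in at least 1 library and were not tested under a stricter filter. Macrophage markers were also mostly lower: 8 of 10 were called lower in control and 5 in cKO, with *Cd163* at 0 to 0.382 CPM and *Mrc1* at 0.647 to 1.43 CPM in neurons. *Cd68* was called higher (1.72 and 2.15). The summed level of the 10 markers went the other way, at 177 to 183 CPM in control and 179 to 199 CPM in cKO neurons, against 138 to 187 and 134 to 169.6 CPM in naive ganglia. In neurons most of this sum was *Cx3cr1*, at 133 to 142 CPM, against 68.7 to 80.8 CPM in naive ganglia. The span of *Cx3cr1* holds other genes with counts equal to 103% of its own. The part of the macrophage markers in the C1q result was not tested.

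The other members moved less, and not in 1 direction. *C4b* was at 19.5, 22.1 and 13.2 CPM in control and 18.2, 27.3 and 19.5 CPM in cKO neurons, within 0.07 and 0.27 of naive ganglia on the log2 scale and not called in either genotype (2 SE on either side: -0.41 to 0.55 and -0.21 to 0.74). *Serping1* was at 105 to 131 CPM in neurons and differed by -0.49 (adjusted p 0.00342) and -0.39 (adjusted p 0.0143). Without cKO neuron replicate 2 the cKO call was lost (-0.30, adjusted p 0.0660). *C2* differed by -0.78 in control (adjusted p 0.00131) and by -0.23 in cKO, where it was not called. *C3* was not called in either genotype (-0.29 and 1.11, adjusted p 0.647 and 0.0862), and without the filter on low counts it was called in cKO (1.17, adjusted p 0.0438, with 51% of all genes called). With 1 library left out the cKO value of *C3* ranged from 0.63 to 1.40.

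Of 32 other complement genes tested in these comparisons, 9 were called higher and 20 lower in control, and 9 higher and 11 lower in cKO. *Cd93*, a receptor of endothelium and myeloid cells once described as a C1q receptor, was higher by 3.84 in control and 3.22 in cKO. *Colec10* was higher by 3.02 and 2.75, and *Cr1l*, a membrane inhibitor of C3 cleavage, by 1.03 and 0.86. *C4a*, the near copy of *C4b*, went from 0.0682 to 1.15 CPM in control. Among the genes called lower, *Vtn*, which encodes vitronectin, fell by 4.38 in control and by 3.36 in cKO. *Cd59a* fell by 0.93 and by 0.72, and *Susd4* fell by 1.30 and by 1.11. *C1s1*, whose span holds another gene with counts equal to 69.2% of its own, fell by 2.42 and by 1.81.

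**Figure D5:**
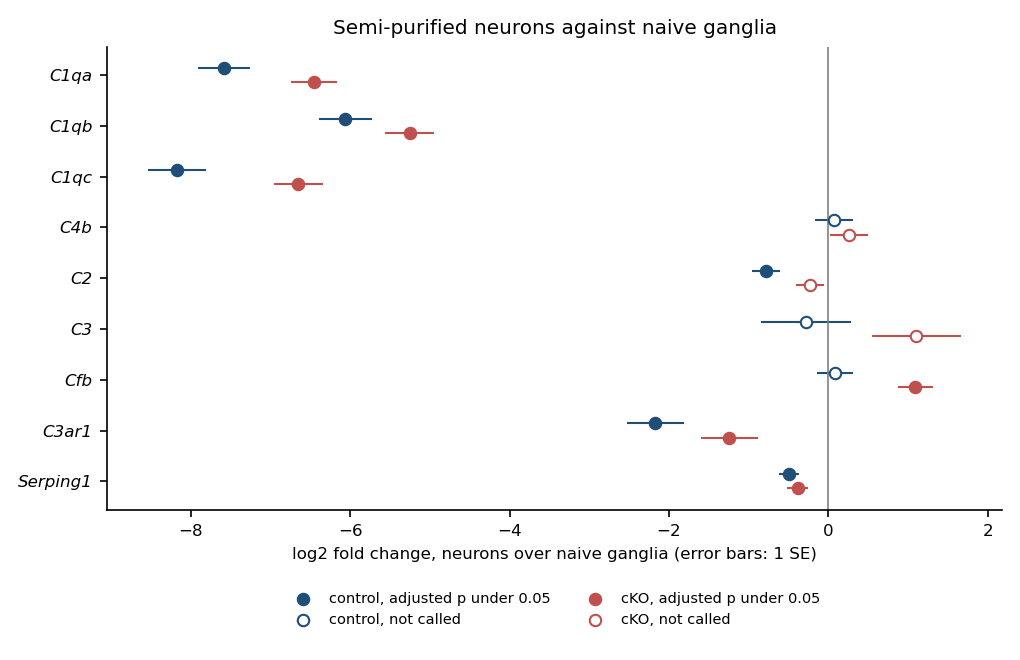
Log2 fold change of semi-purified neurons against naive ganglia (x axis; error bars 1 SE) for each complement gene (y axis) in control (blue) and cKO (red), 3 libraries per group. Filled points have an adjusted p under 0.05; the C1q genes lie between -8.17 and -5.25, while *C4b* and *C3* are not called.

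Within the neurons, *Cfb*, the alternative-pathway protease, was at 7.69, 6.96 and 5.85 CPM in control and 10.9, 17.3 and 8.98 CPM in cKO samples. The cKO samples lay above all control samples, with a log2 fold change of 0.87 (SE 0.237, adjusted p 0.504, edgeR). *Gm20547*, which spans *Cfb*, differed by 0.78. *C3* was at 9.22, 14.1 and 5.02 CPM in control and 18.3, 32.02 and 11.3 CPM in cKO samples, which overlapped, with a log2 fold change of 1.11 (SE 0.435, adjusted p 0.598). Without cKO neuron replicate 2 the values fell to 0.64 for *C3* and 0.55 for *Cfb*, and with other single libraries left out they reached up to 1.56 (without control neuron replicate 2) and 1.05 (without cKO neuron replicate 3). *C1qc* and *C1qa* differed by 1.31 and 0.89, also not called, on at most 33 counts per library, and their control and cKO samples did not overlap.

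No member was called by edgeR in this comparison, with 4 at an unadjusted p under 0.05, where 0% of all genes were called. Groups that do not overlap with cKO higher occurred for 7.54% of all genes, against 3 of 9 here. DESeq2 called *Cfb* (adjusted p 0.0341, with 0.7% of all genes called), and the fit with the replicate number as a block called *C3* (adjusted p 0.0371, with 0.0215% of all genes called). The neutrophil markers lay above 0 for 6 of 6 tested (median 1.18) and the macrophage markers for 7 of 9 (median 0.42), with none called. Their summed levels were 11.3 to 63.9 CPM in control and 39.1 to 128 CPM in cKO samples for neutrophil markers, and 5.13 to 10.97 against 11.4 to 25.3 CPM for 5 red blood cell markers. Schwann cell markers were at 602 to 710 CPM in control and 552 to 585 CPM in cKO samples, without overlap. Mural markers were at 360 to 378 against 334 to 358 CPM, also without overlap. The part of these lists in the *Cfb* and *C3* differences was not tested.

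Across the 10 groups, with 1 scaling over all 26 libraries, the members' levels had different orders. *C4b* ran from 17.5 CPM in naive control and 18.2 in naive cKO through 18.3 and 21.8 in control and cKO neurons to 33.6 and 34.8 in crush ganglia and 34.1 to 53.7 in the 4 sham groups. Its libraries did not overlap between crush control and cKO neurons, the 1 break among 9 neighbouring pairs in that order. *C1qa* ran from 0.175 in control neurons and 0.341 in cKO neurons through 19.6 to 23.6 in sham groups to 30.3 to 40.8 in naive and crush groups, and its libraries did not overlap between the lowest sham group and cKO neurons, or between the neuron genotypes. Neighbouring ganglion groups overlapped for *C1qa* and *C1qc*. For *C1qb* the sham groups of the operated side in control (20.9) and the other side in cKO (17.5) did not overlap. *C3ar1* was at 3.59 to 5.48 in naive and crush groups and at 1.16 to 1.61 elsewhere, with no overlap at 3 of 9 steps: from naive cKO to the sham groups, and on either side of the other sham side of cKO mice (1.40). *Cfb* was highest in cKO neurons, at 12.5 CPM, with no overlap with the next group, control neurons at 6.83, and its lowest group, the other sham side of cKO mice at 4.84, also stood apart from its neighbour. *C3* and *C2* showed no break between neighbouring groups, all 9 neighbouring pairs overlapping. *Serping1* was lowest in the neurons, at 119 and 124 CPM, and between 156 and 207 CPM in ganglia. Sham ganglia differed from naive and crush ganglia in table and in surgery, and from all but 2 crush libraries in sex by transcripts, so these steps were not tested.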

How the data were processed

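RNA was extracted with a QIAGEN RNeasy Plus Mini kit and libraries were prepared with TruSeq Stranded mRNA, per the labels' protocols. The authors deposited 2 tables of whole-number counts per gene, which were used here, and FPKM tables, which were not used. Trim Galore, HISAT2, featureCounts and mm10 are named in the submitters' processing notes, without versions. The strand and overlap settings are not given in the sources used here, so genes that share a stretch may share reads. Of the 55401 genes, 54349 (98.1%) were matched to a symbol in GENCODE M21. The list symbols *C5ar2*, *C9*, *Cr2*, *Glul* and *Prx* were not analysed here.

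The main test was edgeR 4.0.16 (quasi-likelihood, R 4.3.3) on the counts, with filterByExpr (minimum count 10, total 15), TMM scaling, 1 mean per group and Benjamini-Hochberg adjustment over all genes, two-sided, called at an adjusted p under 0.05. Separate fits held 12 naive and crush libraries (21261 genes), 6 neuron libraries (23295), 8 sham libraries (22160), and neurons with naive ganglia (22185). The SE was obtained from the F statistic and the log2 fold change. For likeness, log2 CPM used a prior count of 2. Tested on simulated data, the crush fit recovered 87% of genes changed by a log2 fold change of 1, and 5.6% of its calls were false. Replicates differed by more than counting noise (chi-square per degree of freedom 3.14 to 36.28). Replicate numbers did not pair the naive, crush or neuron samples. Sham sides are paired by mouse, per the labels, and the deviations of the paired sides correlated at 0.241 in control and -0.209 in cKO mice.

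The alternatives were DESeq2 1.42.0, RLE factors, other count filters, sex as a covariate, replicate blocks, fits of only 2 groups, and leaving out libraries. Members and gene lists were chosen with earlier results of these data known. The genes named are the 9 members, other complement genes called in a comparison (at most 4 in each direction), *Ahr*, *Thy1* and *Atf3*, the first 2 of each marker list, and the 3 genes most like each member. *Gm20547*, *Zbtb12*, *C4a*, *Cd163*, *Mrc1*, *Cx3cr1* and *Cd68* were added after their values were seen.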

Additional observations from a re-analysis of the deposited data

Results flagged for a closer look

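Of 9 members compared between the sham genotypes, *C3* was the 1 whose difference between the operated and the other side had opposite signs in every mouse: -0.75 in control and 0.61 in cKO on the log2 scale, a difference of 1.42 (unadjusted p 0.0103 by edgeR, adjusted p 1.00). The genotype difference of each member was also compared between settings in 90 pairs. *Cfb* was above control in every cKO neuron sample (0.87) and below control in every cKO library of the other sham side (-0.23), so that the other sham side minus the neurons was -1.11, which was not tested. On that sham side the highest cKO library was at 4.59 CPM and the lowest control library at 4.61 CPM. With 1 library left out the value there ranged from -0.39 to -0.0400. *Cfb* was also above control in every cKO library of the operated side (0.08). The other side minus the operated side was -0.31, and the test of the operated minus the other side gave 0.31 (unadjusted p 0.176 by edgeR).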

How the results depend on the processing

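The call of *C4b* after crush held under the alternatives run except 1. With sex from transcripts as a covariate, 0 members were called in cKO, and the averaged count fell from 2 to 1 under that covariate, under labelled sex, without the 2 libraries of the other sex, and with the replicate block. *Serping1* was lost in those 4 fits. With at least 10 counts in every library, 3 members were called in each neuron comparison with naive ganglia, since the C1q genes were no longer tested. DESeq2 called 1 member and the replicate block called 1 between neuron genotypes, DESeq2 and the unfiltered fit each called 1 on the operated sham side, and the unfiltered fit called 1 between sham sides. DESeq2 and the absence of a filter also raised the calls over all genes in the sham and neuron genotype fits. Elsewhere the replicate block changed no count of members called. Crossing the cKO mice between sides also left 0 members called.

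Leaving out 1 library gave 1 to 2 members called after crush in control and in the average, 1 in cKO, 5 to 7 for cKO neurons against naive ganglia (5 without cKO neuron replicate 2, which ended the *Serping1* call, and 7 without replicate 3, which added *C3*) and 6 for control neurons. Values near 0 changed sign. For *C3* after crush in control they were -0.00892 with DESeq2, -0.00724 with RLE factors, -0.00939 with the strict filter, -0.0721 with labelled sex, -0.19 without the 2 libraries of the other sex and -0.00655 with only 2 groups. *C2* after crush in cKO became 0.0425 with sex from transcripts and 0.0580 without those 2 libraries, and the genotype difference of *C4b* after crush became -0.0836 and -0.0588. With 1 library left out, ranges in the crush comparison were, in control, -0.0342 to 0.29 for *C1qa*, -0.0362 to 0.34 for *C1qb*, -0.37 to 0.87 for *C3* and -0.28 to 0.13 for *C3ar1*, and in cKO -0.0887 to 0.27 for *C1qa*, -0.0743 to 0.30 for *C1qc* and -0.0677 to 0.0531 for *C2*. For *C4b* they were -0.15 to 0.28 between naive genotypes, -0.0112 to 0.10 between crush genotypes, -0.23 to 0.19 for the interaction and -0.11 to 0.27 for control neurons against naive. *C3* ranged from -0.75 to 0.55 for control neurons against naive, -0.19 to 0.0156 between sham sides and -0.44 to 0.33 between genotypes on the other side, *Cfb* from -0.0696 to 0.19 for control neurons against naive, and *Serping1* from -0.12 to 0.0199 between neuron genotypes. The causes of these changes were not tested.

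With 2 sham mice per genotype, simulated log2 fold changes of 1 were recovered in 75% of genes and 10.2% of the calls were false (6.8% between neuron genotypes). Each simulation changed 100 genes by 1 and 100 by 2 on the log2 scale, with libraries drawn independently. The measured genotype fit on the operated sham side called 0.00451% of all genes, so these percentages need not hold there. The few C1q counts in neurons limit the precision of their values. Intervals of 2 SE describe the uncertainty of a difference between group means, estimated from the spread between libraries.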
